A study of Homo sapiens with 6 samples.

Results

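The genes described here are 8 transcription factors of the interferon regulatory factor (IRF) and signal transducer and activator of transcription (STAT) families, namely IRF1, IRF2, IRF3, IRF7, IRF9, STAT2, STAT3 and STAT6. They were chosen by name, and the values of the experiment played no part in the rule, although the choice was made with earlier results of these data known. A member was read from the locus whose gene field holds its symbol, and all 8 were found among the 26822 gene symbols of the table. MCF10A, an established and non-tumorigenic line of human breast epithelial cells, was grown in medium with horse serum, epidermal growth factor, hydrocortisone, cholera toxin and insulin. Cells were reverse-transfected with 30 nM of a pool of siRNAs against the transcription factor PAX9 (siPAX9) or of non-targeting siRNA (siNT), and RNA was taken after 72 hours from 3 samples of each group. Both groups therefore carry transfected small RNA, siPAX9 is a knockdown and not a deletion, and all cells come from 1 line. Poly(A)+ RNA was sequenced, and each locus has 1 FPKM (fragments scaled to the length of the transcript and to the mapped fragments of the library) per group, which the authors combined from its 3 samples. There is no value per sample, so no error could be computed and no test run on the values below. The comparison columns that the authors deposited beside them were not used, and the words higher and lower describe the pooled values only. The methods of the study give a range of total reads over the samples, but the table holds no counts, so the reads behind a single value cannot be recovered.

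STAT proteins wait in the cytoplasm until a cytokine receptor and its Janus kinases (JAKs) phosphorylate them, and then pair and enter the nucleus. Type I and type III interferons act through the complex ISGF3, to which STAT2 and IRF9 belong and which binds the interferon-stimulated response element (ISRE) of antiviral genes. Interferon gamma acts through gamma-activated sites (GAS), interleukin-6 and its relatives through STAT3, and interleukin-4 and interleukin-13 through STAT6. IRF3 and IRF7 are switched on by sensors of foreign nucleic acid and turn on the interferon genes themselves, whereas IRF1 is an activator, and IRF2 mostly a repressor, at shared ISRE-like sites.

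The promoter sequences of 3 members are shown because they hold, or lack, the sites through which this system feeds back on its own factors. Each is the 250 bases before the transcript start in RefSeq (GRCh38.p14), written 5′ to 3′ on the gene's strand, and capitals mark matches to GAS (TTCNNNGAA) or to the ISRE core (GAAANNGAA or GAANNGAAA). The IRF1 window is chr5:132490774-132491023 on the minus strand, that of IRF9 is chr14:24161015-24161264 on the plus strand, and that of STAT2 is chr12:56360108-56360357 on the minus strand.
IRF1: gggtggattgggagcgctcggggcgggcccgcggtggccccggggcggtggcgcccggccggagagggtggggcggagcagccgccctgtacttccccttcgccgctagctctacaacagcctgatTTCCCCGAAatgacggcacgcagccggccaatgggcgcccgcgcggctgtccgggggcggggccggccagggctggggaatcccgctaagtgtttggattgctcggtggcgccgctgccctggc
IRF9: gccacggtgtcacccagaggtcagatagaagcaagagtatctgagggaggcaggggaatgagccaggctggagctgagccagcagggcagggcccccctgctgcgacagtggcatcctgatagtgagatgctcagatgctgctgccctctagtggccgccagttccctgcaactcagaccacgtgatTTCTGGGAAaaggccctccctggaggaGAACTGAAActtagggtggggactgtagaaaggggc
STAT2: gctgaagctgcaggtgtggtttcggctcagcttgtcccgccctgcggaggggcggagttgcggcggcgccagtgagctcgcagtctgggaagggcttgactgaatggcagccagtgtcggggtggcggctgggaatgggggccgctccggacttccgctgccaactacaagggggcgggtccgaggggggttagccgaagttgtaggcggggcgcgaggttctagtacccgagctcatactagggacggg

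IRF1 held 1 GAS match (TTCCCCGAA) from 124 to 116 bases before the start. IRF9 held a GAS match (TTCTGGGAA) from 63 to 55 bases and an ISRE core match (GAACTGAAA) from 36 to 28 bases before the start. STAT2 held neither. RefSeq promoters of 300 bases, 250 before and 50 after the start, were matched for 5 of the 8 members, IRF1, IRF9, STAT2, STAT3 and STAT6. Searched on both strands, GAS was present in 2 of these 5 and in 7.66% of all 35116 promoters. The GAANNGAAA form was present in 1 of the 5 and in 7.66% of all promoters, and the GAAANNGAA form in 0 of the 5 and in 8.11% of all. The GAANNGAAA form was added to the search after the IRF9 window had been read. A wider spacing that STAT6 prefers (TTCNNNNGAA) was present in 0 of the 5 and in 6.44% of all promoters. Neither of the PAX9-binding sequences searched, GCGTGACCA and GCGGAACGG, was present in any of the 5, and they were present in 0.157% and 0.225% of all promoters. These are matches of letters in a fixed window, and binding was not measured.

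**Figure D1:**
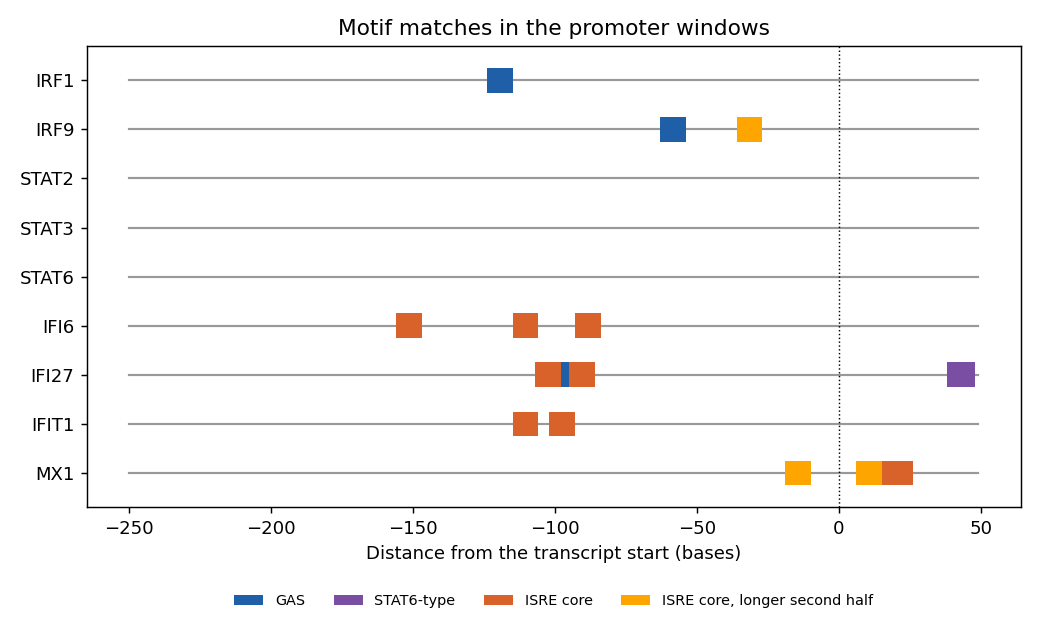
Motif matches in RefSeq promoters (GRCh38.p14), with each gene as a line (the start listed first where a gene has several), distance from the transcript start in bases on the x axis, and squares at GAS, STAT6-type and ISRE core matches. IRF1 has 1 square, IRF9 has 2, STAT2, STAT3 and STAT6 have none, and the 4 interferon-stimulated genes drawn under them have several ISRE core squares each. In IFI27 the GAS match lies between its ISRE core matches and overlaps both of them.

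PAX9, the gene targeted by the siRNAs, had 2.80 FPKM in siNT and 0.325 FPKM in siPAX9, a ratio of 0.116. Its locus on chromosome 14, from 37126773 to 37642998 in hg19, overlaps SLC25A21. The members were compared with 12831 named loci, those with a gene symbol, values above 0 in both groups and at least 1 FPKM in the higher group. Over these loci the median log2 ratio of siPAX9 over siNT was -0.06, and the percentiles 5 and 95 were -1.17 and 1.31. All 8 members passed the filter.

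IRF7 and the locus of IRF9, which also carries RNF31, were higher in siPAX9 by more than 2-fold, STAT2 was higher and IRF2 lower by more than 1.5-fold, and IRF1, IRF3, STAT3 and STAT6 differed by less. At 2-fold in either direction, 2 of 8 members passed, against 14.2% of the background loci. Both were higher, where the background share is 7.26%, and 0 of 8 were lower, where it is 6.89%. At 1.5-fold, 4 of 8 members passed against 31.0%, and at 4-fold 1 of 8, IRF7, against 3.94%. With 8 genes these counts are a description of the family and not a statement about what sets it apart. The median log2 ratio of the 8 was 0.18, with 5 members above 0 and 3 below, and 0.052 without the IRF9 locus. Members are different genes read in the same pooled libraries and are not replicates of one another.

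**Figure D2:**
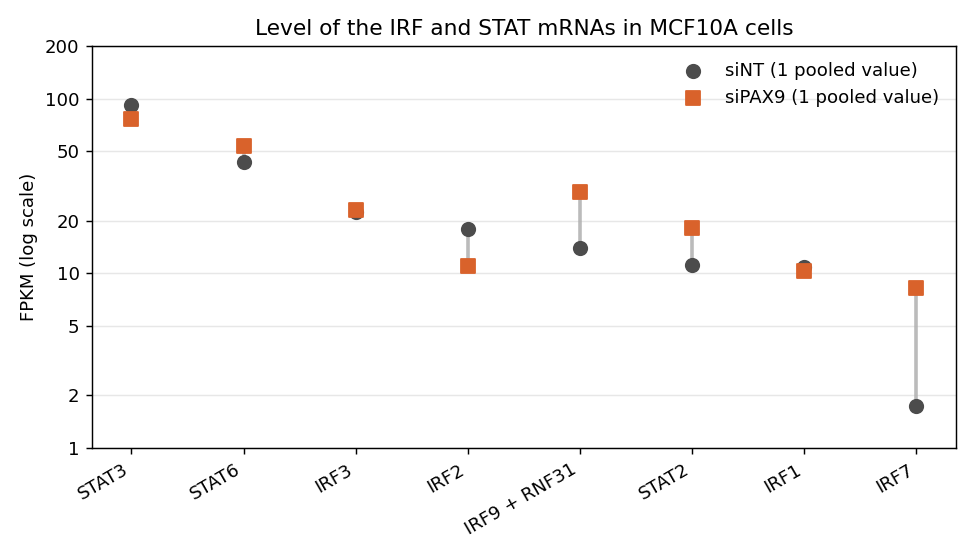
FPKM of each of the 8 members in siNT and siPAX9 on a log axis, with 1 pooled value per group and so no error bars. IRF7 goes from 1.73 to 8.28 and IRF9 from 14.0 to 29.4, while STAT3 is the highest member in both groups at 91.3 and 76.6.

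IRF9 is the DNA-binding subunit of ISGF3. Its locus had 14.0 FPKM in siNT and 29.4 FPKM in siPAX9, a ratio of 2.09 and a log2 ratio of 1.06, and 6.69% of the background loci had a log2 ratio at least as high. The locus spans chromosome 14 from 24612573 to 24637372 (hg19) and carries 2 symbols, IRF9 and RNF31, a subunit of a ubiquitin ligase that lies just upstream on the same strand. The value therefore belongs to both genes and cannot be split between them. PSME2, a proteasome activator gene listed over the same stretch together with MIR7703, went the other way, with 23.6 FPKM in siNT and 18.3 FPKM in siPAX9.

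STAT2, which brings the transactivation domain to ISGF3, had 11.2 FPKM in siNT and 18.2 FPKM in siPAX9. Its log2 ratio was 0.70, a value reached or exceeded by 11.6% of the background loci, and it did not pass 2-fold. The locus lies on chromosome 12 from 56735233 to 56754037 (hg19), and the GENCODE transcript has 24 exons on the minus strand. STAT2 and the shared locus of IRF9 and RNF31 both had higher pooled values in siPAX9.

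IRF7, the factor that amplifies interferon production and is itself an interferon-stimulated gene, had the largest ratio of the 8. It had 1.73 FPKM in siNT and 8.28 FPKM in siPAX9, a ratio of 4.78 and a log2 ratio of 2.26, and 2.14% of the background loci had a log2 ratio at least as high. Its level exceeded that of 11.6% of the background loci in siNT and of 44.5% in siPAX9, yet it was the lowest member in both groups. The locus lies on chromosome 11 from 612555 to 615999 (hg19), with 11 exons on the minus strand.

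IRF3, the relative of IRF7 that most cells make at a steady level, had 22.3 FPKM in siNT and 23.1 FPKM in siPAX9. Its log2 ratio was 0.05, close to the background median. IRF3 was thus the more abundant of the pair in both groups, but the ratio of IRF7 to IRF3 was 0.0777 in siNT and 0.358 in siPAX9. The locus, on chromosome 19 from 50162826 to 50177173 (hg19), overlaps that of BCL2L12, whose value was 7.16 FPKM in siNT and 6.98 FPKM in siPAX9. Whether reads were counted by strand is not given in the sources used here, so reads of IRF3 and BCL2L12 cannot be told apart where the loci overlap.

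IRF1 and IRF2 compete for the same sites. IRF1 had 10.9 FPKM in siNT and 10.4 FPKM in siPAX9, a log2 ratio of -0.07. IRF2 had 17.9 FPKM in siNT and 11.0 FPKM in siPAX9, a log2 ratio of -0.71, and 13.2% of the background loci had a log2 ratio at least as low. The RNA of the repressor exceeded that of the activator in both groups but stood closer to it in siPAX9, and the ratio of IRF1 to IRF2 was 0.609 in siNT and 0.945 in siPAX9. IRF1 lies on chromosome 5 from 131817301 to 131826465 and IRF2 on chromosome 4 from 185308876 to 185395726 (hg19), both on the minus strand. In GENCODE a protein-coding gene with no symbol, on the other strand, overlaps exons of IRF1, and reads from the overlap cannot be told apart either.

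STAT3, the mediator of interleukin-6 signals, was the highest member in both groups, with 91.3 FPKM in siNT and 76.6 FPKM in siPAX9 and a log2 ratio of -0.25. It exceeded 94.4% and 94.0% of the background loci in the respective groups. STAT6, the mediator of interleukin-4 signals, had 43.6 FPKM in siNT and 53.7 FPKM in siPAX9, a log2 ratio of 0.30. The pair thus drew closer, with a ratio of STAT3 to STAT6 of 2.09 in siNT and 1.43 in siPAX9. STAT3 lies on chromosome 17 from 40465326 to 40540513 and STAT6 on chromosome 12 from 57482677 to 57505680 (hg19), where NAB2 overlaps it with 18.5 FPKM in siNT and 14.9 FPKM in siPAX9. As for IRF3, reads from the overlap of STAT6 and NAB2 cannot be told apart.

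In siNT the levels ran from STAT3 through STAT6, IRF3, IRF2, IRF9, STAT2 and IRF1 down to IRF7. In siPAX9 STAT2 stood above IRF2, and the locus of IRF9 above IRF3, while the ends of the order stayed in place. The place of IRF9 is that of its locus with RNF31, not of the gene alone. Whether neighbours in this order differ beyond the spread between samples cannot be said from pooled values. Summed over the 5 IRF members the FPKM was 66.8 in siNT and 82.1 in siPAX9, and over the 3 STAT members 146.1 and 148.5. The IRF sum includes the locus shared with RNF31, at 14.0 FPKM in siNT and 29.4 FPKM in siPAX9. That locus differed between the groups by about as much as the whole sum, which is therefore not a total of IRF genes alone. The median log2 ratio was 0.05 for the IRF members and 0.30 for the STAT members.

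Of 6 further family genes, 4 had 1 FPKM or more in the higher group, and 0 of these 4 passed 2-fold. IRF5 had 4.56 FPKM in siNT and 6.51 FPKM in siPAX9. STAT5B had 10.9 and 7.29 FPKM, STAT4 had 4.23 and 3.22 FPKM, and STAT5A had 1.10 and 1.08 FPKM in the same order. The lymphoid and myeloid factors were near or at the bottom of the scale, with IRF4 at 0.00264 FPKM in siNT and listed at 0 in siPAX9, and IRF8 listed at 0 in siNT and at 0.0101 FPKM in siPAX9.

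**Figure D3:**
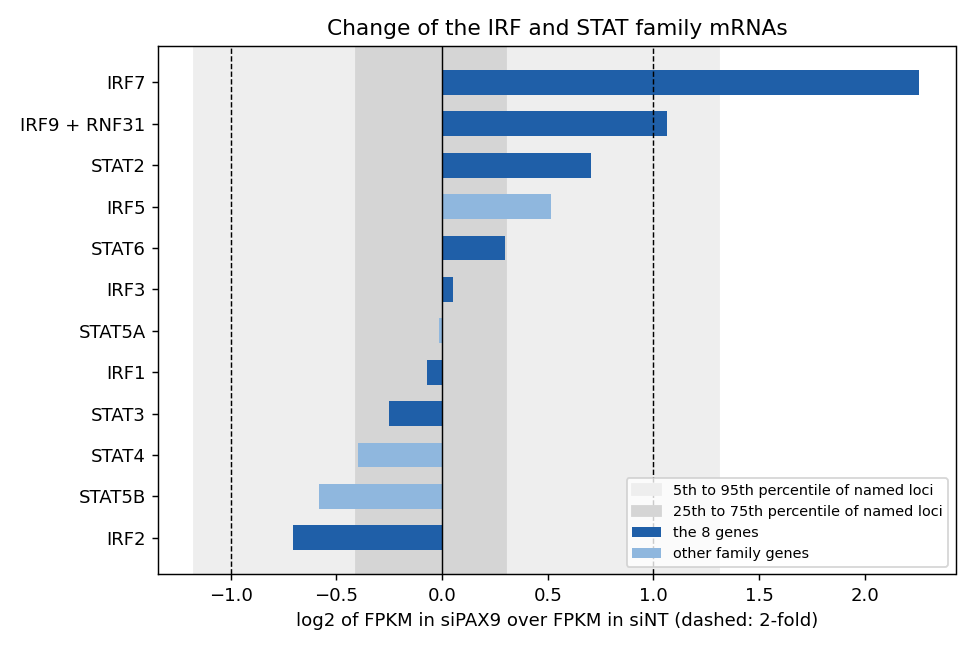
Log2 ratio of siPAX9 over siNT for 12 IRF and STAT genes with at least 1 FPKM in the higher group, members and other family genes in separate colours. IRF7 at 2.26 and IRF9 at 1.06 lie past the 2-fold lines, and 6 of the 12 genes lie above 0.

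The other genes of the pathway were taken from lists by role, 131 genes in all, of which 102 had at least 1 FPKM in the higher group. Of these, 23 were higher and 14 lower in siPAX9 by at least 2-fold, where the background shares are 7.26% and 6.89%, and 15 of the 23 were ISGF3 targets. The same shares stand behind the counts of each list, and in a list of a few genes a count of 1 to 3 is a description only. The ligands were scarce, with 4 of 15 at 1 FPKM or more. Of the interferons IFNE, a type I interferon, reached 1 FPKM, with 1.13 FPKM in siNT and 1.36 FPKM in siPAX9. Its locus spans chromosome 9 from 21454267 to 21559697 (hg19). Overlap with other genes was not examined there, so the value may not be of IFNE alone. Interferon beta (IFNB1) had 0.0547 FPKM in siNT and 0.0566 FPKM in siPAX9, and interferon gamma (IFNG) was listed at 0 in both groups. IL6, which signals to STAT3, had 3.61 FPKM in siNT and 0.220 FPKM in siPAX9, and its relative IL11 had 0.557 and 1.63 FPKM.

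Of 12 receptor genes at 1 FPKM or more, 3 were lower by at least 2-fold and 0 higher, against 6.89% and 7.26% of the background loci. The chains of the type I interferon receptor were close between the groups, with log2 ratios of -0.04 for IFNAR1 and -0.36 for IFNAR2. Of the interferon gamma receptor, IFNGR2 had 99.5 FPKM in siNT and 35.4 FPKM in siPAX9, while IFNGR1 had 120.7 and 129.1 FPKM. The other receptors past 2-fold feed STAT3, the oncostatin M receptor OSMR with 70.2 and 26.2 FPKM and the leukemia inhibitory factor receptor LIFR with 5.63 and 2.66 FPKM. With 1 FPKM added LIFR no longer passed. Their shared chain IL6ST had a log2 ratio of 0.30, and the STAT6-activating receptor IL4R one of -0.49.

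Of the 5 kinases at 1 FPKM or more, 0 passed 2-fold. JAK1 had 22.5 FPKM in siNT and 37.3 FPKM in siPAX9, and the log2 ratios of JAK2 and TYK2 were -0.21 and -0.13. Among the 6 adaptors that lead from nucleic acid sensors to IRF3 and IRF7, TMEM173 (STING) was the 1 past 2-fold, with 36.1 FPKM in siNT and 10.5 FPKM in siPAX9. Of the 20 inhibitors 2 were higher and 3 lower, against 7.26% and 6.89% of the background loci. The STAT3-directed inhibitor SOCS3 had 21.0 FPKM in siNT and 3.32 FPKM in siPAX9, CISH had 2.80 and 0.788 FPKM, and SOCS2, which no longer passed with 1 FPKM added, had 9.26 and 4.15 FPKM. SOCS1, which blocks JAK kinases in interferon signalling, had 0.506 and 2.41 FPKM.

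Counts and medians of the targets of the members are given by list, and differences between lists were not tested. Of 22 ISGF3 targets at 1 FPKM or more in the higher group, 15 were higher by at least 2-fold and 0 lower. The list's median log2 ratio was 1.83, where that of the background was -0.06. Among the 15, IFIT1, MX1, OAS2, RSAD2 and CMPK2 were below 1 FPKM in siNT and passed the filter only through siPAX9. ISG20, within 2-fold, passed in the same way. The counts and the median therefore rest partly on genes admitted by their siPAX9 value. IFI44 and IFI44L share 1 locus, so the genes are not all separate measurements. IFI6, a mitochondrial and endoplasmic reticulum protein of the interferon response, had 10.7 FPKM in siNT and 338.5 FPKM in siPAX9. IFI27 had 4.93 and 110.6 FPKM, the RNA-binding antiviral IFIT1 had 0.571 and 12.2 FPKM, and the antiviral GTPase MX1 had 0.170 and 2.73 FPKM. IFI6, IFI27, IFIT1 and MX1 were named for the largest ratios of the list. Their differences are larger than those of STAT2 and the IRF9 locus, whose log2 ratios were 0.70 and 1.06. Of the other targets, BST2, DTX3L and IFI35 lay below both, and ISG20, OASL, IFIH1, OAS1 and PARP9 lay between them.

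The stretches that hold the ISRE core matches of IFI6, IFI27 and IFIT1 are printed beside the promoter of IRF9 given above. They are from RefSeq (GRCh38.p14), 5′ to 3′ on the gene's strand, with GAAANNGAA on either strand in capitals. The IRF9 window holds no match to this form, and its match is of the GAANNGAAA form. They are chr1:27672265-27672360 (minus strand) for IFI6, chr14:94110617-94110661 (plus strand) for IFI27 and chr10:89392496-89392541 (plus strand) for IFIT1.
IFI6: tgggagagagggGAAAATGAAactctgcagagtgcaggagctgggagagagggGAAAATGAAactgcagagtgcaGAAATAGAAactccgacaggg
IFI27: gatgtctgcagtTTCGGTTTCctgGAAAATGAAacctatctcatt
IFIT1: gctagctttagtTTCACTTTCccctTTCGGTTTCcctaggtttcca

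IFI6 held 3 matches, and IFI27 and IFIT1 held 2 each. MX1, which is not printed, held GAAANNGAA matches only after the start, and GAANNGAAA matches on both sides of it. At least 1 of the ISRE core forms was present in the promoter of 20 of 20 ISGF3 targets with a RefSeq entry and of 1 of 5 members, against 17.3% of 27305 genes. With GAAANNGAA alone the counts were 16 of 20 targets and 0 of 5 members, against 9.86% of genes. The match among the members is that of IRF9, in the form added after its window had been read, so it is not a finding. A gene with several listed starts was counted when any of its windows held a match, and the 20 targets had 30 windows where the 5 members had 5. The stretches above come from the start listed first for each gene. The ISRE is part of what makes a gene known as an ISGF3 target, so its share in that list is not an independent result.

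Targets of IRF1 and of GAS, such as the antigen-processing genes, were more mixed. Of 15 at 1 FPKM or more, 3 were higher by at least 2-fold and 1 lower, with a median log2 ratio of 0.16. With 1 FPKM added to each value 0 passed in either direction, and with centring on the background median the lower count was 0. The chemokine gene CXCL10 had 0.312 FPKM in siNT and 1.32 FPKM in siPAX9, and the guanylate-binding protein genes GBP1, with 4.89 and 9.80 FPKM, and GBP3, with 5.29 and 10.6 FPKM, lay at the threshold. The immunoproteasome subunit PSMB9 had 6.28 and 3.12 FPKM. The GBP genes are close copies of one another, and PSMB9 is listed at 8 loci of which the highest was read, so their values are uncertain. In this list 11 of 12 genes with a RefSeq promoter held an ISRE core form, or 10 of 12 with GAAANNGAA alone. GAS was held by 5 of 12, against 9.38% of all genes.

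Of 15 STAT3 targets, 4 were lower and 1 higher by at least 2-fold, with a median log2 ratio of -0.66. Centred on the background median, 2 were higher. Haptoglobin (HP), an acute-phase protein, had 33.2 FPKM in siNT and 0.469 FPKM in siPAX9, and the survival factor BIRC5 had 18.0 and 4.22 FPKM. OSMR is also a receptor, described above, and the kinase gene PIM1 had 2.40 and 6.33 FPKM. An ISRE core form was present in the promoters of 0 of 11 genes of this list, and GAS in 2 of 11. Of 6 STAT6 targets at 1 FPKM or more, 3 were lower and 1 higher, with a median of -1.17. SERPINB3 had 67.3 FPKM in siNT and 17.7 FPKM in siPAX9 and its near-identical neighbour SERPINB4 had 46.3 and 9.42 FPKM, between which reads may be split unevenly. POSTN, a matrix protein, had 0.0407 and 1.41 FPKM, and CISH is also an inhibitor, described above.

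**Figure D4:**
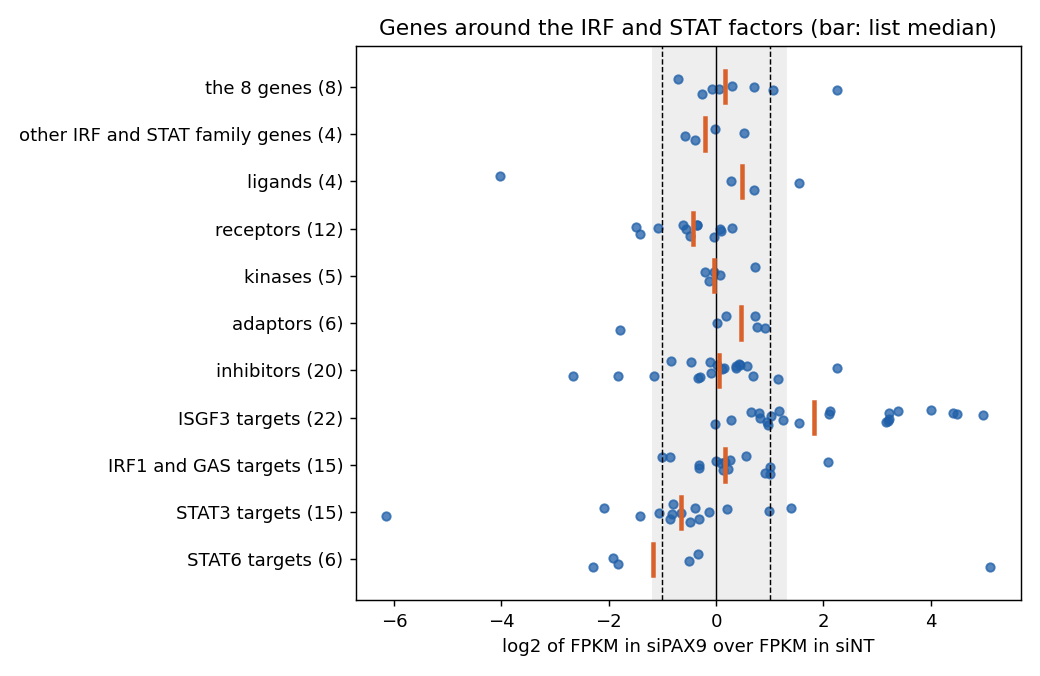
Log2 ratio of siPAX9 over siNT for each pathway gene with at least 1 FPKM in the higher group, by list, with dots for genes, a bar for the list's median, dashed lines at 2-fold and a grey band from percentile 5 to 95 of the background loci. The ISGF3 targets have the highest median at 1.83, the receptors lie at -0.43, the STAT3 targets at -0.66 and the STAT6 targets at -1.17, and the members at 0.18.

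Markers of breast epithelium were present throughout, with 10 of 10 at 1 FPKM or more, KRT5 at 1558 FPKM in siNT and 1807 FPKM in siPAX9, and a summed level of 3919 and 4505 FPKM. The markers did not all lie on 1 side, with 6 higher and 4 lower, among them CDH1 with 45.3 and 124.4 FPKM and EPCAM with 34.3 and 16.7 FPKM, both past 2-fold. Of 3 luminal hormone receptor markers 1 had 1 FPKM or more, the transcription factor gene GATA3 with 6.19 and 7.56 FPKM. The estrogen receptor gene ESR1 stood at 0.0560 and 0.317 FPKM, and the progesterone receptor gene PGR at 0.00126 FPKM in siNT and listed at 0 in siPAX9. Of 5 immune cell markers, 2 had 1 FPKM or more, CD14 with 14.4 and 56.5 FPKM and CD68 with 3.38 and 3.77 FPKM, and the list summed to 17.9 and 60.4 FPKM. The T cell marker CD3E was listed at 0 in both groups, and the pan-leukocyte marker PTPRC had 0.0166 and 0.0922 FPKM. Of 5 fibroblast markers 2 had 1 FPKM or more, DCN with 5.85 and 37.9 FPKM and COL1A1 with 0.454 and 4.13 FPKM, and the list summed to 6.40 and 42.2 FPKM, while 1 of 3 endothelial markers did, with sums of 2.58 and 0.516 FPKM. COL1A2, LUM and PDGFRB were below 0.1 FPKM in both groups. The immune sum, most of it CD14, and the fibroblast sum, most of it DCN, were higher in siPAX9, as were IRF7 and the IRF9 locus, and their part in the result was not tested. In bulk RNA, a different share of cells and a different amount of RNA per cell cannot be told apart.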

How the data were processed

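The RNA-seq data cover 6 samples of MCF10A, 3 transfected with siNT and 3 with siPAX9. According to the submitters' notes and methods, reads were aligned to hg19 with Bowtie 2 and quantified with Cufflinks in Partek Flow. The deposited values are FPKM, and the authors gave 1 pooled FPKM per locus and group. The methods give the total reads only as a range over the samples, and strand use is not given in the sources used here. The table holds no counts. The authors' fold change, test statistic, p-value, q-value and significance columns hold their own comparison and were not used.

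For each symbol, the locus with the highest mean of both groups was read, and log2 of siPAX9 over siNT was computed with no pseudocount. Locus starts were moved by 1 base to count from 1. Background loci had a symbol, both values above 0 and at least 1 FPKM in the higher group. The threshold was 2-fold. Exons came from GENCODE on GRCh37, which shares its coordinates with hg19, and promoters from RefSeq (GRCh38.p14). No coordinates were converted between builds. The reading of loci and the computation of ratios were tested on simulated data, and the motif search was not. Python 3.11.15, numpy 2.4.6, pandas 2.3.3 and matplotlib 3.10.9 were used.

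The members, lists and tests were chosen with earlier results of these data known. Named genes were the members, 6 other family genes, from each list up to 4 with the largest absolute log2 ratio among those past 2-fold with at least 1 FPKM in the higher group, the direct partners of the members, and PAX9. IFNB1, IFNE, IFNG, IL10RB, USP18, further ISGF3 targets and the cell type markers were named outside this rule, with their values seen. Genes that overlap the loci of members or of PAX9 were named as well. Some genes of the lists are not reported here. Alternatives were another fold threshold, 1 FPKM added to each value, centring on the background median, no filter on low values, summed loci and subsets of the members.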

Additional observations from a re-analysis of the deposited data

How the results depend on the processing

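Centred on the background median, all 8 members kept the sign of their log2 ratio, with IRF1 closest to 0 at -0.01. The other alternatives could not turn a sign, since 1 FPKM added to both values keeps their order and each member is listed at 1 locus. With 1 FPKM added IRF7 had a log2 ratio of 1.76 and IRF9 one of 1.01, so both still passed 2-fold. The count of members past the threshold was 2 at 2-fold, 4 at 1.5-fold and 1 at 4-fold. The members' median of 0.18 was 0.17 with 1 FPKM added, 0.24 when centred, 0.052 for the IRF members, 0.30 for the STAT members and 0.052 without IRF9, whose locus carries a further symbol. Of the pathway genes, 37 passed at 2-fold, 57 at 1.5-fold and 19 at 4-fold, the counts being fixed by the threshold itself. At 2-fold the count was 27 with 1 FPKM added, where 562 background loci were higher and 574 lower of 12831, and 44 with no filter, where 22.2% of 17834 loci passed. With 1 FPKM added, 0 of the IRF1 and GAS targets passed in either direction, the receptors past 2-fold were 2 and not 3 (without LIFR), the inhibitors were 1 higher and 2 lower (without USP18 and SOCS2), and the ligands were 0 higher (without IL11). No paired analysis was possible because the table holds 1 pooled value per group, and for the same reason no replicate could be left out. Without counts, the precision of values under 1 FPKM could not be computed.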

Other observations

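The type I interferon receptor genes, IFNGR2 and IL10RB lie within 1 stretch of chromosome 21 in hg19, with IFNAR2 starting at 34602200 and IFNGR2 at 34775202. Their log2 ratios were -0.36 for IFNAR2, -0.36 for IL10RB, -0.04 for IFNAR1 and -1.49 for IFNGR2, so that the gene at the far end of the stretch had the lowest ratio. These neighbours were looked at after their values were seen.

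One of the PAX9-binding sequences searched, GCGGAACGG, has a match on the minus strand of the MX1 promoter (CCGTTCCGC), from 189 to 181 bases before the start. MX1 was the 1 of 20 ISGF3 targets with this match, and 0.267% of the 27305 genes with a listed promoter held it. The other sequence, GCGTGACCA, was present in 1 of 12 IRF1 and GAS targets with a promoter and in 0.194% of the genes. The MX1 match was noticed after the search had been run, and binding was not measured.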
